A study of Mus musculus with 20 samples.

Results

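Of 56239 genes counted in chromatin-associated RNA, 57 rose transiently after induction of IKZF1, with high levels at 2 and 6 h and a level near or below the starting one at 24 h. They were chosen on CPM, a gene's counts scaled to a common library total, averaged over both libraries of a time point. A gene qualified with at least 1 CPM at 2 h, a log2 ratio to 0 h of at least 1 at both 2 h and 6 h, and a log2 ratio of at most 0.3 at 24 h, with 0.1 CPM added to each level. All 57 were among the 16601 genes tested (10 counts or more in 2 libraries or more), which the condition of 1 CPM at 2 h ensures. The libraries at 0, 2, 6 and 24 h thus chose the genes, and their values are described without a test. Tests were made only among libraries that had no part in the choice, at 30 min, 1, 12 and 21 h.

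The cells were B3 cells, a mouse lymphoma line that resembles pre-B cell progenitors, transduced with a retrovirus for Ikaros-ERt2, a fusion of IKZF1 with an estrogen receptor ligand-binding domain that moves into the nucleus when 4-hydroxytamoxifen (4-OHT) binds it. Untreated cells of this population, sorted for GFP, served as the 0 h group, and the other 9 groups received 500 nM 4-OHT for 30 min, 1, 2, 6, 12, 15, 18, 21 or 24 h. There were 2 replicate libraries in each of the 10 groups, 20 in all, and where the labels do not name separate cultures the p-values measure a spread that may be technical. Every induced library had both 4-OHT and nuclear IKZF1, so responses to the drug and to IKZF1 cannot be told apart here.

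IKZF1 (Ikaros) is a zinc finger DNA-binding factor that lymphocytes need for normal development, and it is lost or mutated in many pre-B cell leukemias. It recruits histone deacetylase complexes and represses many genes of cycling pre-B cells, while other genes rise as the cells stop dividing. RNA held on chromatin is rich in transcripts still being made, so its level follows transcription more closely than total RNA does, and reads from introns count toward a gene. A level compared between genes also depends on gene length, so levels are compared below only within a gene.

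Libraries held 33296158 to 46868954 counts with a median of 40943260. Replicates differed little more than counting noise at most time points, with a chi-square per degree of freedom of 1.26 to 1.77 at 0 to 6 h and at 15 h, but of 9.95 at 12 h, 14.9 at 18 h, 4.78 at 21 h and 2.58 at 24 h. Of 12 pre-B cell markers, 10 were detected and Rag1 and Rag2 stayed under 0.1 CPM in every library. The summed level of these markers ran from 8643 to 17020 CPM. T cell markers summed to 41.1 to 112 CPM with Cd3e, Cd3g and Cd4 under 0.1 CPM, myeloid markers to at most 2.29 CPM, erythroid markers to at most 0.69 CPM and fibroblast markers to at most 0.20 CPM.

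Promoters were available for 37 of the 57 genes in RefSeq, as 46 start sites with 250 bases before each on GRCm38.p6. The hexamer TGGGAA, the core that IKZF1 zinc fingers recognize, was searched on both strands and lay in 16 of the 46 windows (34.8%), against 21.6% of 32851 windows of all genes. It is shown for 4 genes picked from those with a match and followed below, 5′ to 3′ on the strand of the gene. Capitals mark the hexamer or its reverse complement. The windows are chr10:116950454-116950703 (minus strand) for Rab3ip, chr3:52105007-52105256 (minus strand) for Maml3, chr11:93098116-93098365 (plus strand) for Car10 and chr10:62726095-62726344 (minus strand) for Stox1. Another window of Car10, chr11:93099040-93099289, also held a match and is not shown.
Rab3ip: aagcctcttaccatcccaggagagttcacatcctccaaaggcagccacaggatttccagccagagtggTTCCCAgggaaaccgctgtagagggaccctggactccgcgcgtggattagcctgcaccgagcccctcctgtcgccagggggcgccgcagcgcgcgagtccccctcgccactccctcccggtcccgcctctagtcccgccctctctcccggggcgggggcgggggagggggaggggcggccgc
Maml3: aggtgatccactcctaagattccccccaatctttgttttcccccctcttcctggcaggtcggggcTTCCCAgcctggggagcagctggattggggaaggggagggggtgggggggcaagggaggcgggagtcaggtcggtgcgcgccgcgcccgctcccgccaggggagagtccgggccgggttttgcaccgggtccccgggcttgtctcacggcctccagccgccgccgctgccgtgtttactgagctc
Car10: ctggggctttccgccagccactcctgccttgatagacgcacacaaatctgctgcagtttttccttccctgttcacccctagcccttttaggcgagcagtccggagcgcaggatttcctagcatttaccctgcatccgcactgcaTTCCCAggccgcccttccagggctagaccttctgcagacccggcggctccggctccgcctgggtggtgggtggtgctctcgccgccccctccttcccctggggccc
Stox1: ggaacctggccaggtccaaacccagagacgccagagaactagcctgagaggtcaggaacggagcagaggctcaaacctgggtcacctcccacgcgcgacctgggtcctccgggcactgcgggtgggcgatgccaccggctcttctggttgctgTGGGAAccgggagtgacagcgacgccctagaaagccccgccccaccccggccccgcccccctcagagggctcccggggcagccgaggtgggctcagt
A match is a description of these letters and not evidence of binding. The antioxidant response element core TGACNNNGC, whose match in 8 of 46 windows (17.4%) compares with 10.2% of all windows, also had a higher share among these genes. AP-1 sites (TGANTCA) were in 3 windows (6.52%, against 6.75% of all), and the cAMP response element TGACGTCA was in 1 (2.17%, against 1.55%). The consensus estrogen response element, heat shock element and NF-kB site and the E-box CACGTG were in none of the 46, against 0.0639%, 0.466%, 0.14% and 6.02% of all windows.

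The rise began between 30 min and 1 h for most of the 57 genes. The median log2 ratio to 0 h was still 0.13 at 30 min, but 0.97 by 1 h, 1.45 by 2 h and 1.52 by 6 h. It then sank to 0.86 at 12 h, 0.54 by 15 h, 0.30 by 18 h, −0.13 by 21 h and finally −0.34 at 24 h. The highest mean level was at 6 h for 33 genes, at 2 h for 19, at 1 h for 3 (Tmem121, Rab11fip1 and Fbxl8) and at 12 h for 2 (Ccdc18 and Ggct). At 24 h the level was below that at 0 h for 41 genes, and 9 of these were at a log2 ratio of −1 or lower. These ratios use library totals, under which the median of all genes tested was itself −0.25 at 24 h.

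**Figure D1:**
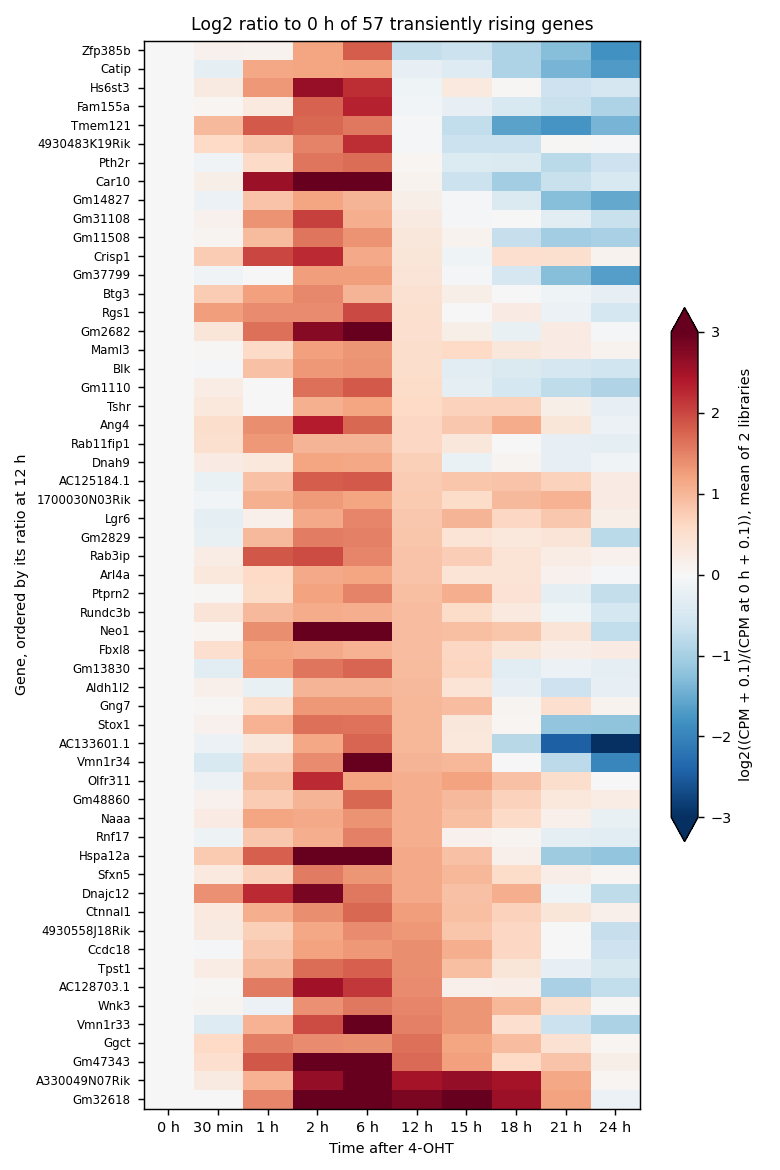
Log2 ratio to 0 h of the mean CPM of 2 libraries (0.1 CPM added) for each of the 57 genes (rows, ordered by the ratio at 12 h) at 10 time points (columns), with red above and blue below the 0 h level and colours ending at 3 and −3. Red is shared by every gene at 2 and 6 h because the genes were chosen for it, while the columns from 12 h on range from genes at or below their 0 h level, at the top, to genes still far above it, at the bottom.

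The genes did not come down together. Between 6 and 12 h the mean level was at least 2-fold lower for 20 genes and at least 5-fold lower for 13 of these, while it was no lower for 2. Car10 was 19.1-fold lower at 12 h than at 6 h, Neo1 15.2-fold, Gm2682 10.1-fold, Vmn1r34 9.19-fold, Hspa12a 8.37-fold and Vmn1r33 7.88-fold. In contrast, Ccdc18 and Ggct were at their highest at 12 h, and Wnk3 and Aldh1l2 were only 1.09-fold and 1.04-fold lower at 12 h than at 6 h. These values use the 6 h libraries and are a description.

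**Figure D2:**
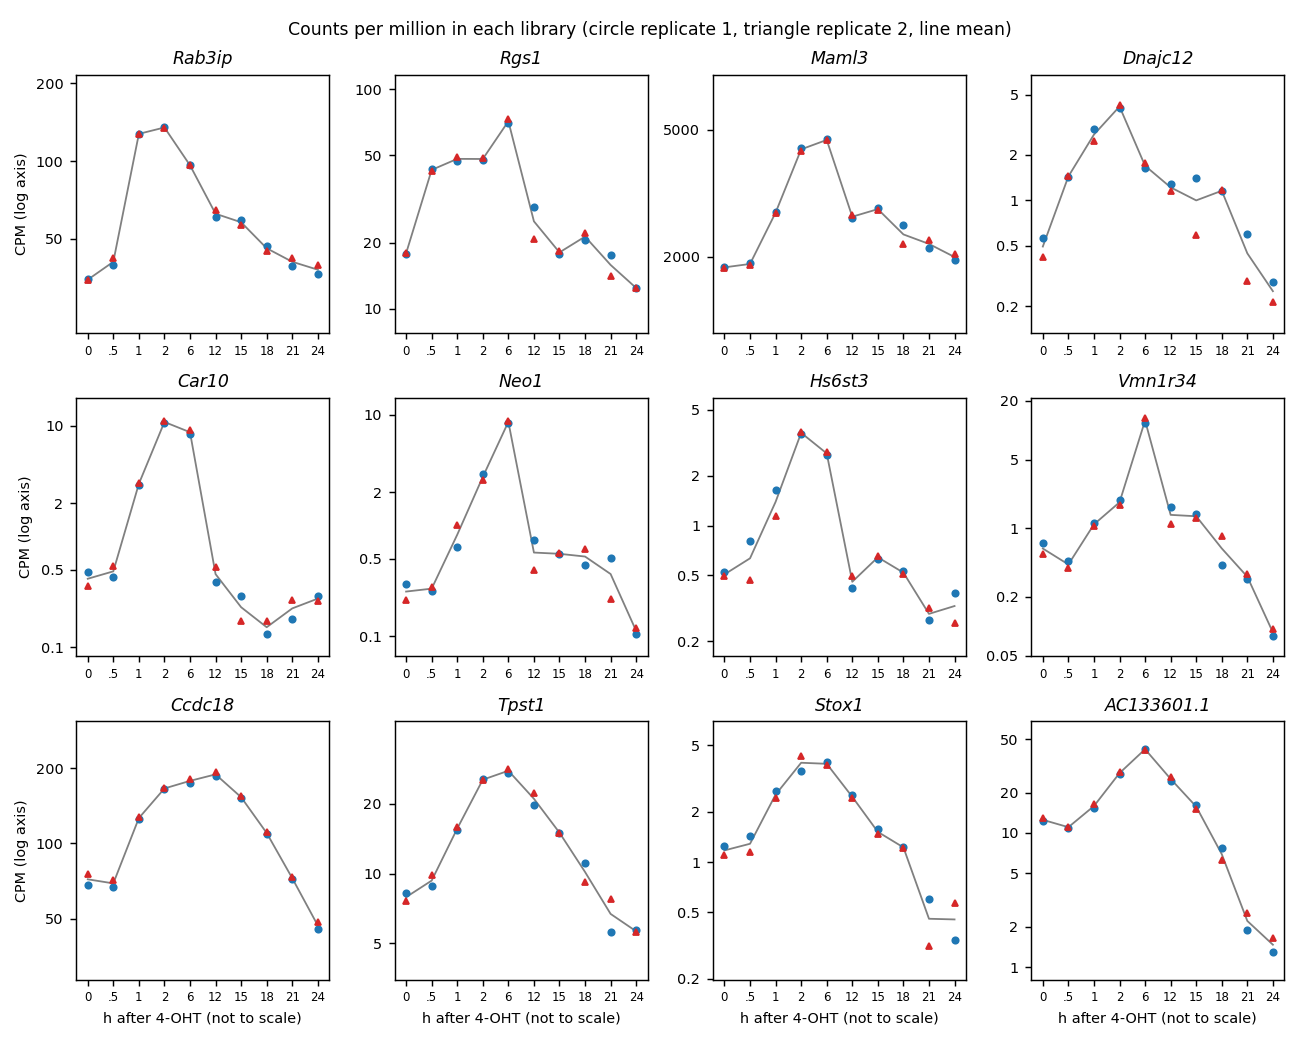
CPM of 12 of the genes in every library (circle, replicate 1; triangle, replicate 2; line, mean; log axis) against time after 4-OHT, with time points evenly spaced. Rab3ip was high from 1 h, Car10, Neo1, Hs6st3 and Vmn1r34 had a narrow peak at 2 or 6 h, and Ccdc18, Tpst1, Stox1 and AC133601.1 had a broad one.

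The 40 protein-coding genes, 13 long intergenic RNAs, 3 antisense RNAs and 1 pseudogene are described by role, from groups written with the membership known. A test result is given only for 1 h against 30 min, 12 h against 30 min, 21 h against 30 min and 21 h against 12 h. Calls needed a fold change above 2 and an adjusted p under 0.01 in edgeR's quasi-likelihood test, over all 16601 genes. Sizes of a tested change are log2 fold changes, and ± gives the SE, with n = 2 libraries at each time point. The spread of a gene was estimated over all 20 libraries, although replicates differed more at 12 and 21 h. The SE and p-values of comparisons with 12 or 21 h may therefore be too small. By these limits 1.69% of all genes were called higher and 3.08% lower at 1 h against 30 min, 13.4% and 9.47% at 12 h against 30 min, 20.2% and 19.1% at 21 h against 30 min, and 5.19% and 6.49% at 21 h against 12 h.

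Among 4 genes of small GTPases and vesicle traffic, Rab3ip (GRCm38 chr10:116905784-116950769) encodes Rabin8, an exchange factor that switches RAB8 on during membrane transport. Rab3ip was at 34.9 and 34.6 CPM at 0 h and at 39.4 and 42.0 CPM at 30 min, then at 128 and 127 CPM at 1 h. Its levels were 135 CPM in both libraries at 2 h, 96.2 and 96.5 CPM at 6 h, 60.5 and 64.6 CPM at 12 h, 39.3 and 42.2 CPM at 21 h, and 36.4 and 39.5 CPM at 24 h. The libraries at 1 h lay far above those at 30 min, and those at 21 h overlapped with 30 min. The rise from 30 min to 1 h was 1.67 ± 0.05 on the log2 scale (SE, n = 2 each, adjusted p = 3.64e-16), and the value at 12 h against 30 min was 0.63, under the fold required.

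Rab11fip1, which links RAB11 to recycling endosomes, was highest at 1 h, with 12.1 and 12.4 CPM against 7.66 and 6.09 at 30 min, a log2 difference of 0.88 that did not reach the fold required. Arl4a, an ARF-like GTPase at the plasma membrane, went from 6.80 and 6.00 CPM at 0 h to 13.9 and 14.3 at 2 h and back to 6.67 and 5.52 at 24 h. Rundc3b, a RUN domain protein, was at 5.53 and 4.96 CPM at 0 h, 10.9 and 12.0 CPM at 2 h and 3.68 and 3.49 CPM at 24 h. No gene of this group except Rab3ip was called in any of the 4 comparisons.

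Signalling and gene regulation held 11 genes. Rgs1 (chr1:144242296-144249242), which speeds GTP hydrolysis on G-alpha subunits and damps chemokine signals in B cells, was the earliest of them. It stood at 17.9 CPM in both libraries at 0 h and already at 43.5 and 42.3 CPM at 30 min, near its 47.2 and 49.0 at 1 h. It was at 47.5 and 48.7 CPM at 2 h, 70.0 and 72.7 CPM at 6 h and 29.2 and 20.8 CPM at 12 h, then at 17.5 and 14.1 CPM at 21 h and 12.5 and 12.4 CPM at 24 h. Rgs1 did not pass the test from 30 min to 1 h (0.20 ± 0.10, adjusted p = 0.107), its level being already high at 30 min. It fell by 1.20 on the log2 scale from 30 min to 21 h (SE 0.107, adjusted p = 1.2e-09). Rgs1 and Dnajc12 were the only 2 of the 57 genes with a log2 ratio of at least 1 at 30 min.

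Maml3 (chr3:51685907-52105076) took by far the most reads of the 57 genes. It encodes a mastermind-like coactivator of NOTCH-dependent transcription and spans 419 kb. It was at 1858 and 1841 CPM at 0 h, 1908 and 1883 at 30 min and 2763 and 2732 at 1 h. Levels of Maml3 were 4382 and 4308 CPM at 2 h, 4667 and 4636 CPM at 6 h, 2635 and 2702 CPM at 12 h, 2122 and 2261 CPM at 21 h, and 1956 and 2030 CPM at 24 h. Replicates differed by little against the change between time points. The difference from 30 min to 1 h was 0.57 ± 0.04 on the log2 scale (adjusted p = 1.55e-10), below the fold required, and no comparison called Maml3.

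Ctnnal1, encoding alpha-catulin, a catenin-like scaffold protein, was at 14.1 and 13.2 CPM at 0 h, 29.9 and 29.1 CPM at 1 h, 46.7 and 44.7 CPM at 6 h and 15.8 and 14.4 CPM at 24 h. Btg3, an antiproliferative factor that binds the CCR4-NOT deadenylase, was already at 18.0 and 19.5 CPM at 30 min against 11.4 and 10.7 at 0 h, and stood at 29.0 and 31.6 at 2 h and 8.80 and 9.77 at 24 h. Neither was called in a comparison. For Btg3 the values at 12 h (15.6 and 14.6 CPM) were below those at 30 min, and it overlaps Cxadr on the other strand over 27.1 kb.

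Stox1, a winged helix protein studied in placenta, was at 1.25 and 1.11 CPM at 0 h, 2.67 and 2.41 CPM at 1 h, 3.53 and 4.35 CPM at 2 h, 2.51 and 2.41 CPM at 12 h and 0.601 and 0.316 CPM at 21 h. It rose from 30 min to 1 h by 1.02 ± 0.18 (adjusted p = 8.36e-05) and fell from 12 to 21 h by 2.23 (SE 0.242, adjusted p = 6.95e-08). Its 21 h libraries were both below every earlier library. The rise at 1 h was just past a 2-fold change and was not called with library totals, at 1.00, or without 30 min replicate 2 or 1 h replicate 1.

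The other regulators took fewer reads. Blk, a SRC-family kinase of the B cell receptor pathway, was at 0.725 and 0.565 CPM at 0 h and 1.39 and 1.14 at 1 h and rose from 30 min to 1 h by 1.04. Rnf17, a Tudor domain protein of germ cells, rose by 1.03 at 1 h and 1.31 at 12 h against 30 min and fell by 1.24 from 12 to 21 h. Gng7, a G protein gamma subunit, and Wnk3, a kinase that regulates chloride transporters, were not called at 1 h but were higher at 12 h than at 30 min, by 1.05 and 1.42. Wnk3 stood at 3.80 and 3.19 CPM at 1 h against 4.42 and 3.99 at 30 min, and it overlaps the antisense gene A230072E10Rik, whose mean was 10.7 CPM at 2 h against 5.62 at 0 h. Zfp385b, a zinc finger protein of 409 kb, was at 2.27 and 2.26 CPM at 6 h and at 0.239 and 0.367 at 12 h, and fell by 1.57 from 30 min to 21 h. Fbxl8, an F-box protein, was at 2.02 and 2.19 CPM at 0 h and 4.65 and 4.88 at 2 h and was not called.

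Receptors and other membrane proteins held 7 genes. Neo1 (chr9:58874687-59036441) encodes neogenin, a receptor for netrins and repulsive guidance molecules, and had a narrow peak at 6 h. It was at 0.295 and 0.212 CPM at 0 h and 0.258 and 0.280 CPM at 30 min, then at 0.640 and 1.01 CPM at 1 h, 2.92 and 2.59 CPM at 2 h and 8.42 and 8.90 CPM at 6 h. At 12 h its libraries were at 0.748 and 0.393 CPM and at 24 h at 0.105 and 0.118. Neo1 rose from 30 min to 1 h by 1.61 ± 0.37 on the log2 scale (adjusted p = 0.00127), but was not called without 1 h replicate 2 (1.26, adjusted p = 0.0284) or without either 30 min library (1.55 and 1.68). Its difference between 21 and 12 h was −0.44 ± 0.40 (adjusted p = 0.369).

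Tmem121, a membrane protein whose gene lies beside the immunoglobulin heavy chain locus, peaked at 1 h. It was at 3.67 and 3.34 CPM at 0 h, a mean of 6.93 at 30 min, 13.0 and 12.6 CPM at 1 h, 10.4 and 10.9 CPM at 6 h, 3.77 and 2.93 CPM at 12 h and 0.961 and 0.948 CPM at 21 h. It was the only gene of the 57 lower at 12 h than at 30 min by the test, and it fell by 2.62 from 30 min to 21 h (SE 0.171, adjusted p = 5.9e-12). That fall took it under its 0 h level. The remaining 5 were the parathyroid hormone receptor Pth2r, the thyrotropin receptor Tshr, the R-spondin receptor Lgr6, the phosphatase-like Ptprn2 and the channel subunit Fam155a, which reached 1.90 to 5.50 CPM in mean at 6 h. Lgr6 was called higher at 12 h (1.21) and at 21 h (1.45) against 30 min, although its mean at 24 h met the limit of the rule. Ptprn2, with 791 kb the longest gene of the 57, fell from 12 to 21 h by 1.06.

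Enzymes and transporters held 8 genes. Car10 (chr11:93098028-93601749), a carbonic anhydrase-related protein without catalytic activity that binds neurexins, had the largest log2 ratio at 2 h, 4.40. It was at 0.476 and 0.353 CPM at 0 h, 0.430 and 0.537 CPM at 30 min, 2.92 and 3.04 CPM at 1 h, 10.5 and 11.1 CPM at 2 h and 8.32 and 9.10 CPM at 6 h. At 12 h it was at 0.389 and 0.524 CPM, within the range of 0 h and 30 min, and at 24 h at 0.289 and 0.260. The rise of Car10 from 30 min to 1 h, 2.63 ± 0.19 (adjusted p = 2.34e-10), was the largest of the 57. Its difference between 12 h and 30 min was −0.08 ± 0.29 (adjusted p = 0.855).

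Hs6st3, a heparan sulfate 6-O-sulfotransferase encoded over 731 kb, had a similar course, with 0.521 and 0.494 CPM at 0 h, 1.64 and 1.14 CPM at 1 h, 3.58 and 3.69 CPM at 2 h and 0.419 and 0.497 CPM at 12 h, and rose by 1.21 from 30 min to 1 h. Tpst1, which sulfates tyrosines of secreted proteins in the Golgi, followed a broader one, with 8.23 and 7.60 CPM at 0 h, 25.5 and 25.2 CPM at 2 h, 27.2 and 28.3 CPM at 6 h, 19.8 and 22.2 CPM at 12 h and 5.70 and 5.57 CPM at 24 h. Tpst1 was higher at 12 h than at 30 min by 1.18 ± 0.10 (adjusted p = 5.84e-10) and fell from 12 to 21 h by 1.40 (SE 0.103, adjusted p = 1.33e-10). Hs6st3 differed from Tpst1 in that its 12 h libraries were back among those of 0 h.

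Aldh1l2, the mitochondrial 10-formyltetrahydrofolate dehydrogenase, was at 5.73 and 5.60 CPM at 0 h, 4.76 and 4.89 CPM at 1 h, 11.8 and 11.4 CPM at 2 h, 11.6 and 11.7 CPM at 6 h and 10.5 and 11.8 CPM at 12 h. By 21 h it was at 3.27 and 4.04 CPM, a fall from 12 h of 1.37 (SE 0.0967, adjusted p = 6.93e-11). Aldh1l2 was thus no higher at 1 h than at 0 h, unlike most of the 57. It was close to both the 2 h and the 6 h limit of the rule, with log2 ratios of 1.02 and 1.03. Aldh1l2 overlaps D10Wsu102e on the other strand over 1.056 kb. The means of D10Wsu102e were 182.8 CPM at 0 h, 238.8 at 2 h, 215.5 at 6 h and 91 at 24 h. Whether the counting used strand is not given in the sources used here, so reads in that stretch cannot be told apart.

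Of the other enzymes, Ggct, which cleaves gamma-glutamyl peptides in glutathione turnover, was at 2.06 and 1.76 CPM at 0 h, 5.14 and 6.29 CPM at 1 h and 6.13 and 6.39 CPM at 12 h, and fell by 1.01 from 12 to 21 h. Naaa, a lysosomal acid amidase that degrades fatty acid ethanolamides, reached 7.10 and 7.58 CPM at 1 h from 3.96 and 3.62 at 30 min, a log2 difference of 0.99 just under the fold required. Ang4, a secreted ribonuclease of the angiogenin family, rose at 1 h by 1.08. Sfxn5, a mitochondrial sideroflexin, was at 2.09 and 1.95 CPM at 0 h and 6.17 and 6.03 at 2 h and was not called.

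Genes of chaperone families were Dnajc12, a J-domain cochaperone that assists aromatic amino acid hydroxylases, and Hspa12a, a distant HSP70 relative. Dnajc12 (chr10:63382443-63410576) was at 0.567 and 0.423 CPM at 0 h, 1.43 and 1.45 CPM at 30 min, 2.97 and 2.48 CPM at 1 h and 4.10 and 4.25 CPM at 2 h, and at 1.63 and 1.76 by 6 h. It thus turned down before most others. Dnajc12 fell from 30 min to 21 h by 1.50 (SE 0.333, adjusted p = 0.000358), where its libraries held 0.601 and 0.292 CPM, and without 21 h replicate 2 the fall was 1.01 with an adjusted p of 0.0245. Hspa12a was at 0.0680 and 0.353 CPM at 0 h, 0.917 and 1.04 CPM at 1 h, 2.53 and 2.17 CPM at 2 h and 5.27 and 4.40 CPM at 6 h. At 12 h its libraries held 22 and 19 reads and at 21 h 0 and 4 reads. Pooled over replicates this was a 10.7-fold lower level per library size, with a 95% exact counting interval of 3.86 to 40.9. The edgeR test gave a separate estimate, a fall of 3.12 on the log2 scale (SE 0.724, adjusted p = 0.000906). Without 21 h replicate 1 the adjusted p was 0.014 for Hspa12a.

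Cytoskeleton and cilia were represented by Ccdc18, a coiled-coil centriolar satellite protein, Dnah9, an outer arm dynein heavy chain of motile cilia, and Catip, an actin regulator of ciliogenesis. Ccdc18 (chr5:108132875-108233628) was at 68.4 and 75.3 CPM at 0 h, 126 and 127 CPM at 1 h, 165 and 167 CPM at 2 h, 175 and 181 CPM at 6 h and 186 and 193 CPM at 12 h. It came down to 109 and 111 CPM at 18 h, 71.8 and 73.3 CPM at 21 h and 45.5 and 48.4 CPM at 24 h. Ccdc18 was higher at 12 h than at 30 min by 1.46 ± 0.05 (adjusted p = 1.88e-16) and fell from 12 to 21 h by 1.15 (SE 0.0491, adjusted p = 1.5e-14), to the range of 0 h. Catip rose from 30 min to 1 h by 1.55 and fell under its 30 min level by 21 h, with 0.390 and 0.365 CPM against 1.03 and 0.863, a fall of 1.07. Dnah9 was at 4.17 and 4.45 CPM at 0 h and 9.50 and 10.4 at 2 h and was not called.

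Chemosensory receptors and secreted proteins, which pre-B cells are not known to use, were Vmn1r33, Vmn1r34, Olfr311 and Crisp1. The vomeronasal receptor genes Vmn1r33 (chr6:66610543-66618282) and Vmn1r34 (chr6:66635936-66643879) are 17.65 kb apart on the same strand and had alike profiles. Vmn1r34 was at 0.703 and 0.541 CPM at 0 h, 1.13 and 1.06 CPM at 1 h, 1.96 and 1.73 CPM at 2 h, 11.8 and 13.4 CPM at 6 h, 1.64 and 1.10 CPM at 12 h and 0.0788 and 0.0944 CPM at 24 h. Vmn1r33 was at 0.295 and 0.423 CPM at 0 h, 0.747 and 0.938 CPM at 1 h, 1.74 and 1.61 CPM at 2 h, 9.23 and 9.91 CPM at 6 h, 1.64 and 0.786 CPM at 12 h and 0.158 and 0.118 CPM at 24 h. In both genes the 6 h libraries stood far above all others.

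From 30 min to 1 h Vmn1r34 rose by 1.40 ± 0.30 (adjusted p = 0.000688) and Vmn1r33 by 1.72 ± 0.42 (adjusted p = 0.00201). From 12 to 21 h Vmn1r34 fell by 1.83 (SE 0.323) and Vmn1r33 by 2.41 (SE 0.436). Neither rise at 1 h was called without some of the libraries, at 1.29 for Vmn1r34 without 30 min replicate 2 and at 1.37 and 1.56 for Vmn1r33 without 30 min replicate 1 or 1 h replicate 2. Vmn1r genes are near-identical in parts and reads shared between them may be placed on either or lost, so their separate values are uncertain. A neighbour, Vmn1r32, was at a mean of 1.85 CPM at 0 h, 5.39 at 6 h and 0.248 at 24 h.

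Olfr311, an olfactory receptor, was at 0.159 and 0.165 CPM at 0 h and 1.16 and 1.10 at 2 h, and Crisp1, an epididymal secreted protein, at 0.295 and 0.329 CPM at 0 h and 1.74 and 1.95 at 2 h. Both rose from 30 min to 1 h, by 1.66 and 1.39, so that all 4 genes of this group were called in that interval. The shares called higher there were 40.4% of the 57 and 1.69% of all genes tested. Next to Olfr311, the gene Olfr312 had a mean of 3.70 CPM at 2 h against 0.290 at 0 h, and beside Crisp1 the gene Crisp3 had 1.45 against 0.370. The protein-coding gene Gm1110, of no described function, was at 0.363 and 0.329 CPM at 0 h, 1.48 and 1.51 at 6 h and fell by 1.51 from 12 to 21 h.

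Long intergenic RNAs and antisense RNAs together made up 28.1% of the 57 genes, against 15.6% of genes with a sustained rise and 10.9% of all genes tested. These are transcripts not known to encode a protein, and chromatin-bound RNA retains many of them. AC133601.1 (chr18:38601534-38789045) had the deepest fall below its start. It was at 12.2 and 12.8 CPM at 0 h, 27.6 and 28.2 CPM at 2 h, 42.4 and 41.8 CPM at 6 h and 24.2 and 26.3 CPM at 12 h, then at 1.89 and 2.53 CPM at 21 h and 1.29 and 1.65 CPM at 24 h. It was higher at 12 h than at 30 min by 1.20 ± 0.08 (adjusted p = 2.42e-11) and fell from 12 to 21 h by 3.27 (SE 0.108, adjusted p = 2.43e-16). AC133601.1 overlaps Arhgap26 on the same strand over 112 kb, and Arhgap26 was at means of 2.70 CPM at 0 h, 3.78 at 6 h and 0.521 at 24 h. Reads of these genes in that stretch cannot be told apart, even by strand. Spry4, 0.119 kb upstream of AC133601.1 on the other strand, was at means of 54.35 CPM at 0 h, 11.8 at 2 h and 0.335 at 24 h.

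Gm32618 (chr15:32778904-32796006) was at 0.249 and 0.141 CPM at 0 h, 0.704 and 0.735 CPM at 1 h, 2.70 and 3.30 CPM at 2 h and 12.4 and 13.1 CPM at 6 h, the largest log2 ratio at 6 h, 5.44. It was at 2.33 and 1.62 CPM at 12 h and remained above its 30 min level at 21 h, with 0.360 and 0.802 CPM (1.78 ± 0.44, adjusted p = 0.000992). Without 21 h replicate 2 that last difference was 1.05 with an adjusted p of 0.105. A330049N07Rik was close in shape, with 0.0907 and 0.118 CPM at 0 h, 1.16 and 1.20 CPM at 2 h, 8.32 and 7.11 CPM at 6 h and 1.26 and 0.838 CPM at 12 h, and was higher at 12 h than at 30 min by 2.73 ± 0.37 (adjusted p = 1.14e-06).

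Gm47343 was at 0.0680 and 0.141 CPM at 0 h, 0.725 and 0.558 CPM at 1 h, 3.92 and 3.86 CPM at 6 h and 0.0526 and 0.212 CPM at 24 h, and Gm2682 at 0.227 and 0.423 CPM at 0 h, 1.17 and 1.29 CPM at 1 h, 5.02 and 5.22 CPM at 6 h and 0.538 and 0.471 CPM at 12 h. From 30 min to 1 h Gm47343 rose by 1.76 ± 0.38 (adjusted p = 0.000728) and Gm2682 by 1.51 ± 0.33 (adjusted p = 0.000767). At 12 h Gm2682 was back within its 0 h and 30 min range, allowing for its spread. Gm47343 was not called at 1 h without 30 min replicate 1 (1.48) or 1 h replicate 1 (1.54), nor Gm2682 without 30 min replicate 2 (1.28).

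AC128703.1 was at 0.136 and 0.118 CPM at 0 h, 0.640 and 0.507 CPM at 1 h, 1.21 and 1.17 CPM at 2 h and 0.748 and 0.262 CPM at 12 h. Its 12 h libraries held 25 and 10 reads and its 21 h libraries 1 and 0, a 36.4-fold lower level per library size with a 95% exact counting interval of 6.11 to 1477. The rise from 30 min to 1 h, 2.17 ± 0.48 (adjusted p = 0.000979), was not called without 30 min replicate 2 (1.77) or 1 h replicate 1 (1.98). Few reads underlie AC128703.1, and the size of its fall is therefore poorly known.

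The other 7 long intergenic RNAs were Gm13830, Gm31108, 4930558J18Rik, AC125184.1, Gm14827, Gm37799 and 1700030N03Rik. Gm13830 and Gm31108 rose from 30 min to 1 h by 1.59 and 1.26, AC125184.1 by 1.19, Gm14827 by 1.13 and 1700030N03Rik by 1.35. Gm14827 and Gm37799 fell under their 30 min level by 21 h, by 1.02 and 1.14. 4930558J18Rik was not called at 1 h and was higher at 12 h by 1.08. As a group, 9 of the 13 long intergenic RNAs were called higher at 1 h, 9 were called higher at 12 h and 7 were called lower at 21 h than at 12 h. The shares so called were 40.4%, 36.8% and 38.6% of the 57, and 1.69%, 13.4% and 6.49% of all genes tested.

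Antisense Gm11508 (chr11:88011991-88048006) was at 15.0 and 14.3 CPM at 0 h, 28.8 and 27.8 CPM at 1 h, 44.9 and 44.2 CPM at 2 h, 35.7 and 39.0 CPM at 6 h, 17.6 and 19.8 CPM at 12 h and 5.86 and 8.31 CPM at 21 h. It fell from 12 to 21 h by 1.15 (SE 0.109, adjusted p = 7.95e-09), but by 0.95 and under the fold required without 21 h replicate 1. Gm11508 overlaps 0.634 kb of Srsf1, whose mean was 172 CPM at 0 h and 147 at 2 h. Antisense 4930483K19Rik, at 0.453 and 0.447 CPM at 0 h and 2.24 and 2.66 at 6 h, overlaps 11.3 kb of the sterol synthesis gene Lss, whose mean was 56.9 CPM at 0 h and 172 at 6 h. Antisense Gm48860 overlaps 0.990 kb of Il3ra, whose mean was 1.03 CPM at 0 h and 2.25 at 6 h. Whether the counting used strand is not given in the sources used here, so reads of 4930483K19Rik and Gm48860 cannot be told apart from those of their partners. The pseudogene Gm2829 rose from 30 min to 1 h by 1.43.

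Between 30 min and 1 h, in libraries that had no part in the choice, 23 of the 57 genes were called higher and 0 lower by edgeR, against 1.69% of all genes tested called higher and 3.08% called lower. The rule required a rise between 0 and 2 h, so the choice of the genes favours a rise inside that span. The median log2 fold change of the 57 was 0.91, against −0.0011 over all genes tested, and 52 of 57 had a positive value. At an unadjusted p under 0.05, 46 were higher and 1 lower, and DESeq2 called 21 higher and 0 lower. At 12 h against 30 min 21 were called higher and 1 lower (Tmem121), with a median of 0.63, where 13.4% of all genes were called higher and 9.47% lower. The rule required a level at 6 h above that at 0 h, so the choice also favours a higher level soon after 6 h. Without 12 h replicate 2 Tmem121 was not called. Of the 23 called at 1 h, 12 were not called at 12 h against 30 min, and 10 genes were called higher at 12 h but not called at 1 h. The shares of all genes tested with these combinations were not computed, so these counts have no background.

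At 21 h against 30 min 5 of the 57 were called higher and 10 lower, with a median of −0.12. These shares, 8.77% and 17.5%, lie below the 20.2% and 19.1% of all genes. The rule capped the level at 24 h, so the choice of the genes disfavours a higher level at 21 h. With library totals in place of TMM factors, which shift the median of all genes by −0.24, all genes split into 2644 higher and 4093 lower rather than 3350 and 3164, and the 57 into 3 and 14. Leaving out 21 h replicate 2 gave 3 higher and 6 lower, and leaving out 30 min replicate 1 gave 3 higher. The 5 higher genes were Gm32618, A330049N07Rik, AC125184.1, 1700030N03Rik and Lgr6. The call for A330049N07Rik was lost under 5 of 11 alternatives (log2 fold changes of 1.01 to 2.28) and that for Gm32618 under 2 of 11. The 10 lower were Rgs1, Tmem121, AC133601.1, Stox1, Hspa12a, Dnajc12, Catip, Gm14827, Gm37799 and Zfp385b.

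At 21 h against 12 h none of the 57 was called higher and 22 were called lower by edgeR, against 5.19% and 6.49% of all genes tested. The rule required a fall between 6 and 24 h, so the choice of the genes favours a fall inside that span. The median log2 fold change was −0.76, against −0.02 over all genes, and 52 of 57 had a negative value. At an unadjusted p under 0.05, 40 were lower and 0 higher, and DESeq2 called 20 lower and 0 higher. With library totals the 57 gave 26 lower, and all genes 538 higher and 1712 lower rather than 862 and 1077. Of the 21 genes higher at 12 h than at 30 min, 11 were lower at 21 h than at 12 h. The share of all genes tested that met both conditions was not computed. Both conditions were met by Ccdc18, Tpst1, AC133601.1, Gm32618, A330049N07Rik, AC128703.1, Vmn1r33, Vmn1r34, Rnf17, Ggct and 4930558J18Rik. The call of A330049N07Rik at 21 h against 12 h was lost under 2 of 11 alternatives. That of AC128703.1 at 12 h against 30 min was lost under 3 of 13. In all, 43 of the 57 were called in at least 1 of the 4 comparisons and 14 in none. The share of all genes tested called in at least 1 was not computed. At 21 h against 30 min alone, 20.2% of all genes were called higher and 19.1% lower.

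**Figure D3:**
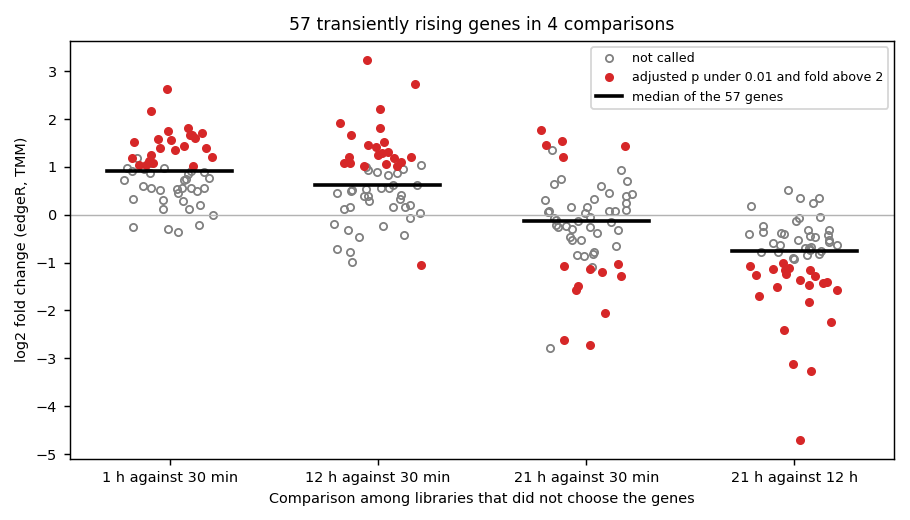
Log2 fold change (edgeR, TMM factors) of each of the 57 genes in 4 comparisons among libraries that did not choose them, with called genes filled, others open and the median as a bar. Points lie mostly above 0 at 1 h and 12 h against 30 min (medians 0.91 and 0.63), about 0 at 21 h against 30 min (−0.12) and below 0 at 21 h against 12 h (−0.76).

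The most similar genes are 422 that met the same conditions at 2 and 6 h but stayed above the limit at 24 h, so the 57 are 11.9% of 479 genes high at both times. Up to 2 h the groups were alike in median, with log2 ratios to 0 h of 0.97 and 0.92 at 1 h and 1.45 and 1.35 at 2 h for the transient and the sustained genes. At 1 h against 30 min 145 of the 422 (34.4%) were called higher, beside 40.4% of the 57. At 6 h the medians were already apart, at 1.52 and 1.78. After 6 h the groups parted further, as the choice at 24 h required at the end of the series, and the medians at 12 h were 0.86 and 1.86. At 12 h against 30 min 371 of the 422 (87.9%) were called higher beside 36.8% of the 57, and at 21 h against 12 h 72 were higher and 8 lower, beside 0 and 22 of the 57. No test of the difference between the groups was made.

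**Figure D4:**
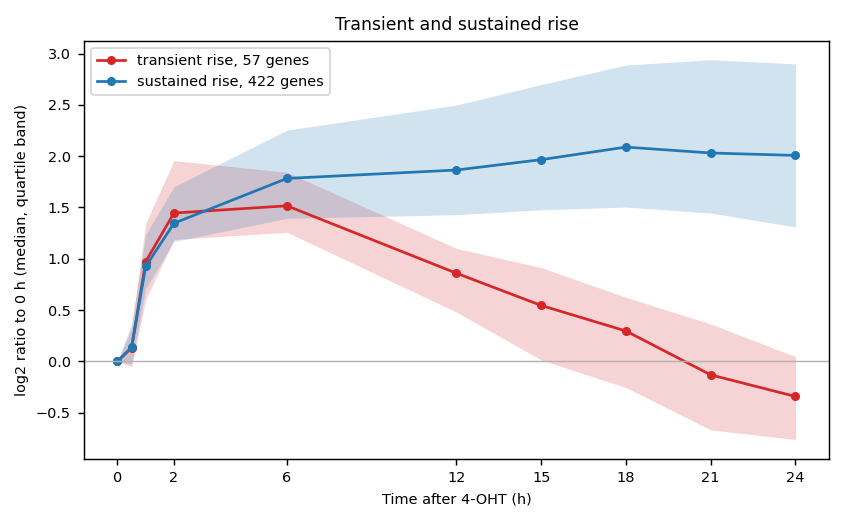
Median log2 ratio to 0 h (line) and quartiles (band) of the 57 genes with a transient rise and the 422 with a sustained rise, against hours after 4-OHT on a linear axis. The lines run together to 2 h, where the medians are 1.45 and 1.35. They are at 1.52 and 1.78 at 6 h and further apart at 12 h, at 0.86 and 1.86.

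Genes with a transient rise were long. Their median length was 44.7 kb in GENCODE M21 (GRCm38), against 31.4 kb for the sustained genes and 20.8 kb for all genes tested, and 35.1% were at least 100 kb, against 17.6% and 12.9%. The 7 of at least 300 kb were Ptprn2, Hs6st3, Fam155a, Car10, Maml3, Zfp385b and Dnah9. Of the 20 genes of at least 100 kb, 5 were called at 1 h against 30 min, and of the 37 shorter ones 18 were. Of all genes tested, 1.69% were called higher there. Counting covers the whole gene body, so a very long gene passes the condition of 1 CPM with fewer reads per kb than a short one. The part of length in the selection was not tested.

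The 57 genes lay on 18 chromosomes, 9 of them on chromosome 10, and Vmn1r33 and Vmn1r34 were the only pair within 100 kb of each other. Of 184 other tested genes within 100 kb of a member, 18 (9.78%) had a log2 ratio of at least 1 at 2 h, against 5.93% of all tested genes outside the 57. Some were low, such as Olfr1353 at a mean of 0.185 CPM at 2 h. The 18 were also not spread evenly, as Crip2, Crip1, Tedc1 and Gm43310 all lay beside Tmem121, and Fam183b, Olfr313 and Olfr312 beside Olfr311. They include Kctd7, 9.13 kb downstream of Tpst1, with means of 1.76 CPM at 0 h and 5.38 at 2 h. They also include Ppef2, 1.38 kb downstream of Naaa, with 0.662 and 1.92 CPM. Readthrough from the upstream gene could not be told apart from separate transcription in counts per gene.

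Of 238 genes on 13 lists of known response programs, 196 were tested, and 1 of these (0.51%) was among the 57, which are 0.343% of all genes tested. This gene was Aldh1l2, from a list of ATF4 targets and genes of the integrated stress response, the program that restores amino acid supply. Of the 18 genes tested on that list, Aldh1l2 included, 7 were lower at 1 h, 12 at 12 h and 15 at 21 h, each against 30 min. In these comparisons 3.08%, 9.47% and 19.1% of all genes tested were called lower. Asns, asparagine synthetase, was at a mean of 121 CPM at 30 min, 37.9 at 12 h and 13.0 at 21 h. Aldh1l2 was instead at 6.31, 11.2 and 3.65 CPM, with a log2 difference of 0.84 ± 0.09 at 12 h against 30 min, under the fold required. The limit set by its overlap with D10Wsu102e holds for these values too.

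The listed genes together had 4 called higher and 21 called lower of 196 at 1 h against 30 min, and 24 higher and 46 lower at 12 h against 30 min. Of all genes tested, 1.69% were called higher and 3.08% lower at 1 h, and 13.4% higher and 9.47% lower at 12 h. Between 30 min and 1 h these lists had median log2 fold changes of −0.87 for the ATF4 list, −0.47 for immediate early genes, −0.31 for NOTCH, TGF-beta, BMP and WNT targets, −0.29 for MAPK feedback genes, −0.27 for pre-B cell differentiation, −0.22 for heat shock genes and −0.12 for NF-kB targets. It was −0.10 for cytokine receptors, −0.05 for NRF2 targets, −0.04 for interferon-stimulated genes, 0.01 for estrogen-responsive genes, 0.18 for sterol synthesis and handling and 0.26 for p53 targets. Every list median was thus under the 0.91 of the 57 genes in that interval, a rise for which libraries at later times had chosen them.

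Membership rests on limits that several genes nearly miss. Just inside the 2 h limit were Gm48860, Aldh1l2 and Rab11fip1 (log2 ratios 1.02, 1.02 and 1.03), and just outside Fbxo48, Rad51c and Carmil3 (0.98, 0.97 and 0.96). At 6 h Btg3, Gm14827 and Aldh1l2 (1.02, 1.03 and 1.03) were just inside, and Degs1, D3Ertd751e and Gm34829 (each at 0.99) just outside. At 24 h AC125184.1, 1700030N03Rik and Fbxl8 (0.25, 0.24 and 0.24) were inside, and Ppef2, Zswim5 and Eef2k (0.32, 0.34 and 0.36) outside. At the level of 1 CPM, 1700030N03Rik, Olfr311 and A330049N07Rik were inside with 1.07, 1.13 and 1.18 CPM at 2 h, and Tspan33, Rgs6 and C18orf63 outside with 0.953, 0.925 and 0.905 CPM.

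Applied to replicate 1 alone the rule found 56 genes and to replicate 2 alone 59, with 40 in both, 71.4% and 67.8% of the respective list. Reads were few for many of the genes at the start, with at most 30 counts in each 0 h library for 22 of the 57. Scaling also bears on the limit at 24 h. With CPM by library totals the median log2 ratio of all genes tested was −0.25 at 24 h, and with TMM factors 45 of the 57 still met the rule and no other gene did. The 12 lost were all over the limit at 24 h.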

How the data were processed

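Chromatin-associated RNA of B3 cells was sequenced without molecular identifiers in 20 libraries, 2 for each of 10 time points. Per the study's methods, STAR alignment to mm10 was run by the authors in nf-core/rnaseq, and the deposited counts are raw reads per gene from featureCounts, intronic reads included. The annotation release and strand setting are not given in the sources used here. The submitters' processing notes name GRCm38 and CASAVA 2.17. The deposited table holds no comparison columns.

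CPM was computed from column totals. A gene needed 10 counts or more in 2 libraries or more, and all such genes were fitted with edgeR 4.0.16 in R 4.3.3 (quasi-likelihood test with TMM factors on all 20 libraries, with 1 coefficient for each time point) and called at an adjusted p-value under 0.01 (Benjamini-Hochberg over 16601 genes) and a fold change above 2. Log2 fold changes are given with their standard error. Groups have n = 2 libraries throughout. Counting intervals cover counting error only. Alternatives were DESeq2 1.42.0, its size factors, library totals, no filter, an adjusted p under 0.05, a replicate block, the 4 libraries compared alone, leaving out each library, and for the rule a pseudocount of 1 CPM, a 24 h limit of 0 and TMM factors. Gene positions came from GENCODE M21, which holds 55240 of 56239 identifiers. The fit was tested on simulated counts. The members, gene lists, role groups and tests were chosen with earlier results of these data known.

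The genes given with full statistics are the 10 with the highest mean CPM at 2 and 6 h, the 8 with the largest ratio at 2 h, members of the lists, and the 6 with the largest called change from 30 min to 1 h and from 12 to 21 h. Nearest neighbours of each limit are named too. Other members are named by role after their values were seen.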

Additional observations from a re-analysis of the deposited data

How the results depend on the processing

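Of 75 recomputed counts, 66 stayed within 1.5 times the value reported, and 9 moved further. A pseudocount of 1 CPM gave 27 members, 25 of them shared with the 57, and either replicate alone gave 56 to 59. The count lower at 12 h against 30 min was 2 with DESeq2's size factors and 2 with library totals instead of 1, and 0 to 2 with a library left out. The count higher at 21 h against 30 min was 3 with library totals instead of 5, and 3 to 6 with a library left out, and the count lower there 6 to 9 instead of 10. With a library left out the counts were 16 to 20 higher at 1 h, 17 to 18 higher at 12 h and 18 to 22 lower at 21 h against 12 h. The replicate block gave 22, 21 and 22 for these 3 counts and 5 higher and 10 lower at 21 h against 30 min. Correlations of same-numbered replicates' deviations were 0.0846 for 1 h and 30 min, −0.135 for 12 h and 30 min, −0.0309 for 21 h and 30 min, and 0.298 for 21 and 12 h. The labels tie the numbers to no shared batch or day, and each comparison has only 2 pairs, so the libraries were not treated as paired. A crossed pairing at 12 h against 30 min, chosen after seeing the data, gave 2214 genes higher and 1602 lower, against 2222 and 1603 paired by number. Of 39 called changes of named genes, 20 were called under every alternative with a value, and no direction reversed. The cause of these shifts was not tested. With 2 libraries a group, genes of few counts (22 of 57 had at most 30 at 0 h) give the least certain values.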
